A study of Cicer arietinum with 8 samples.

Results

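Among 27248 annotated chickpea gene models, 14 stood at least 4-fold lower in salt-stressed root than in control root while their levels stayed close to the control in desiccated root, in cold root and in shoot. They were picked by these measured values. The change of a gene model was log2(FPKM + 1) in a stressed library minus log2(FPKM + 1) in the control library of the same tissue, where FPKM is a fragment count scaled by exon length and by the mapped fragments of the library. The change in root under salinity had to be -2 or lower, the changes in root under desiccation and cold had to lie under 0.5 in size, and those in shoot under each stress had to lie under 1 in size. At least 1 shoot library had to reach 1 FPKM. The falls and the steadiness elsewhere are therefore descriptions of the choice and not results of a test.

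The libraries came from root and shoot of 10-day-old seedlings of the chickpea (Cicer arietinum) genotype ICC4958 raised in a culture room. Treatments lasted 5 h: controls were left in water, desiccation was imposed on folded tissue paper, salinity with 150 mM NaCl, and cold with water at 4 ± 1 °C. Each of the 8 combinations of tissue and treatment has 1 library, so no value below has a replicate within its group. How many plants went into a library, and whether the root and shoot libraries came from the same plants, is not given in the sources used here.

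Salt in the medium meets the root first. It lowers the water potential around the root, an osmotic effect that desiccation shares, and it also brings in sodium and chloride ions, which desiccation and cold do not. Roots are known to respond with changes in ion and water transport, in cell wall growth and in hormone signalling. None of the file's gene IDs (0 of 34193 loci) matched the RefSeq gene table for this species, so the 14 gene models are given by their IDs, with no name or role, and the labelled tissues were not checked against named marker genes.

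Between 15437 and 15632 gene models reached 1 FPKM in a library, and the median-ratio scaling factors ran from 0.98 to 1.04. Summed FPKM was unlike in the tissues, at 1194209 to 1467263 across the root libraries and 2457120 to 3343299 across the shoot libraries. Single fragments leave steps among the low FPKM values. From these steps the depth of the other 7 libraries was 1.21 to 1.29 times that of the root control. By this estimate salt-stressed root, at 1.29, was sequenced more deeply than the control it was compared with. The estimate holds only if FPKM was scaled by each library's own mapped fragments, which was not checked against read counts.

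The criteria narrowed the list quickly. A change of -2 or lower in root under salinity was found for 374 gene models, which is 2.32% of the 16129 with at least 1 FPKM in either library. Of these, 338 differed from the control by 0.5 or more under desiccation or cold as well, and 206 were lower by 1 or more under both. Of the 36 that remained, 15 were set aside because a shoot library differed from the shoot control by 1 or more. Desiccated shoot passed that limit for 11 of them, salt-stressed shoot for 8 that were lower and 3 that were higher, and cold shoot for 2. A further 7 never reached 1 FPKM in shoot, and their shoot values went no higher than 0.731 FPKM. The other 14 are the gene models described here. Another 5 loci without an annotated gene met the same criteria, with the lowest root change at -2.42. No member shared its ID with a second locus or its locus with a second ID, and the closest 2 ID numbers were 151 apart.

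Read from the other side, a fall of this size was rare among steady gene models. All criteria except the one on salt-stressed root were met by 7431 gene models, of which 14 (0.188%) were lower by 2 or more under salinity. A change of -2 needs at least 3 FPKM in the root control, which 5991 of them had, and there the share was 0.234%. Their median change in root under salinity was -0.09, against -2.18 for the 14. The falls ran from -2.87 to -2.01, or 4.24-fold to 9.32-fold in FPKM with a median of 5.51-fold. Of the 14, 13 lay between -2.5 and -2, and 64 further gene models lay between -2 and -1.5, so the threshold cuts a continuous slope. Just inside it were Ca_06906 and Ca_03402, both at -2.01. Just outside were Ca_06442, which went from 193 FPKM in control root to 49.2 FPKM in salt-stressed root (-1.95), and Ca_00459, which went from 127 to 32.5 FPKM (-1.94).

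**Figure D1:**
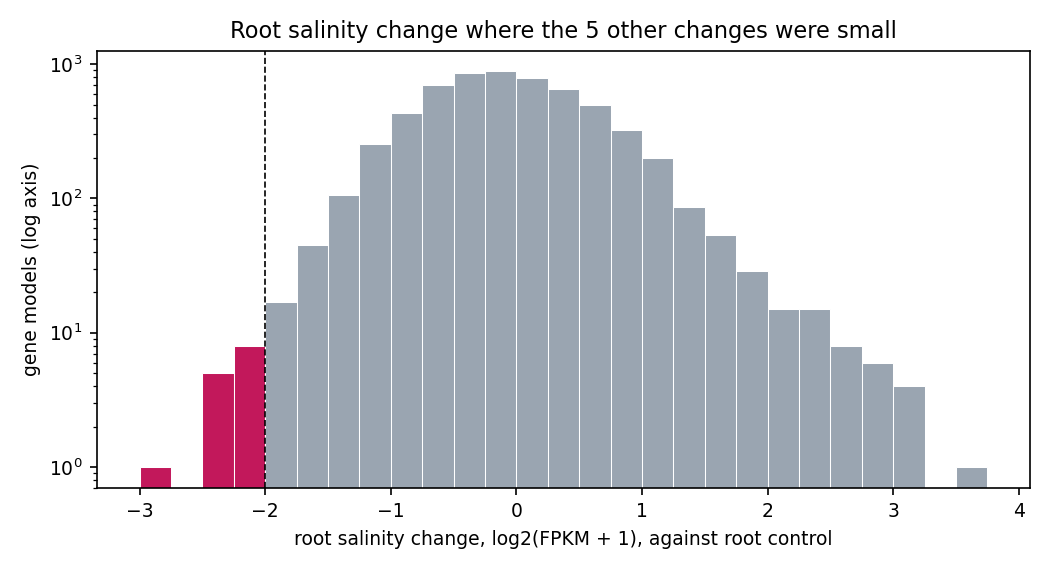
Histogram of the root change under salinity in bins of 0.25, for the 5991 gene models that met every other criterion and had at least 3 FPKM in the root control; the vertical axis counts gene models on a log scale, and the dashed line marks -2. The 14 members, in red, form the lower tail, and higher values reach further out on the right.

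The members were well expressed in root outside salinity. Their median level was 39.9 FPKM in control root, 45.1 FPKM in desiccated root and 36.7 FPKM in cold root, against 13.7, 14.1 and 13.8 FPKM for all gene models with at least 1 FPKM in those libraries. In salt-stressed root their median was 8.08 FPKM, against 14.8 FPKM for all gene models. The lowest of the other 3 root libraries still exceeded the salt-stressed one by 3.63-fold to 7.89-fold for every member. Both this gap and the levels follow in part from the choice, which needed at least 3 FPKM in control root. Desiccated and cold root had to stay near control root, and the gene models set beside the members did not have to meet these limits. In these bulk tissue libraries, fewer cells that express a gene and less RNA per cell cannot be told apart.

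**Figure D2:**
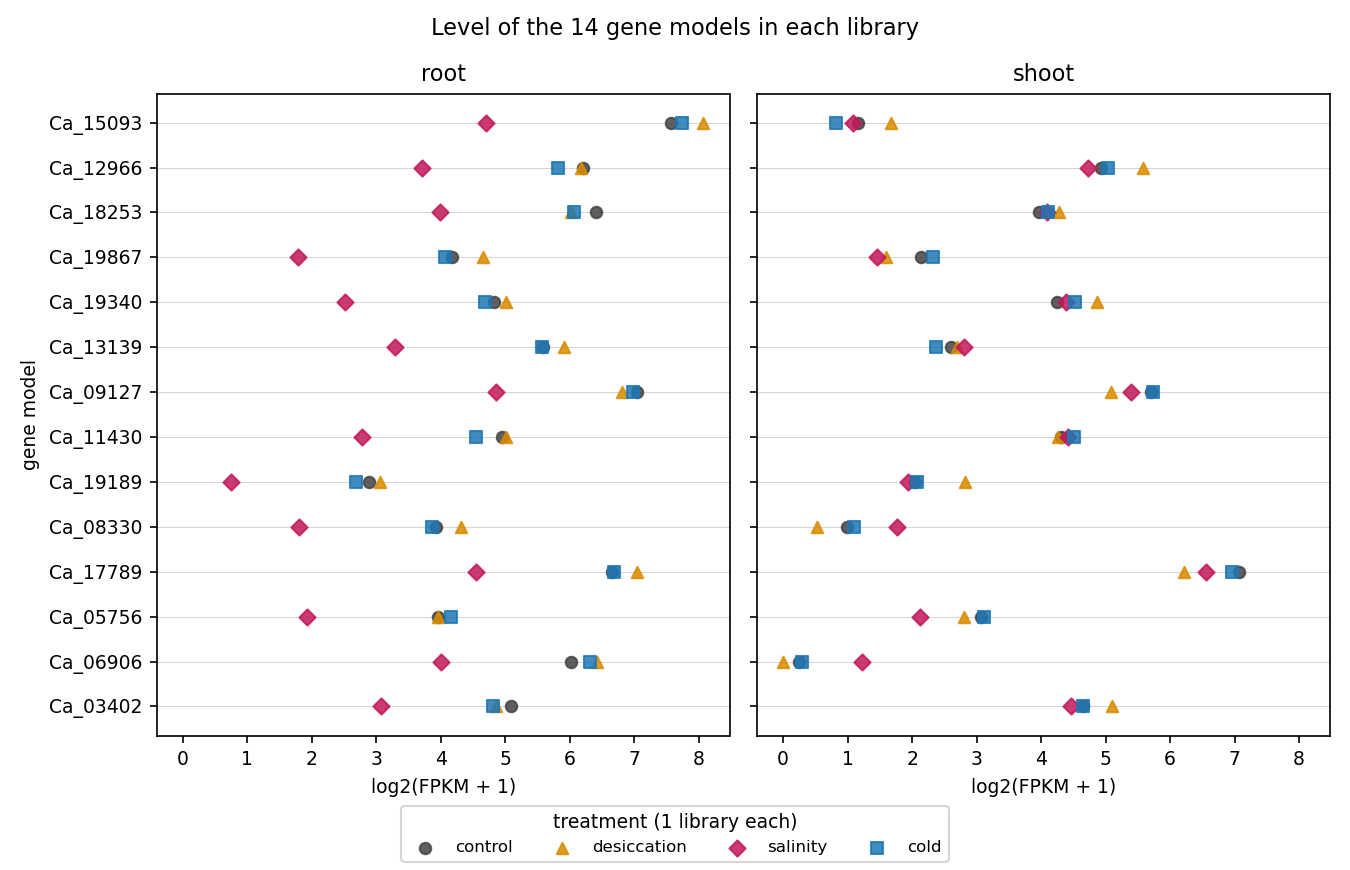
Level of each of the 14 gene models as log2(FPKM + 1), in root on the left and shoot on the right, ordered from the largest fall at the top; each marker is 1 library. In root the salinity marker lies to the left of the other 3 for all 14 gene models, and in shoot it lies within 1 of the control marker.

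Ca_15093 had the largest fall and the highest level in control root. It stood at 189.7 FPKM in control root, 268 FPKM under desiccation, 214 FPKM under cold and 25.1 FPKM under salinity, a 7.57-fold difference from the control. In shoot it stood at 1.24 FPKM in the control, 2.19 FPKM under desiccation, 1.12 FPKM under salinity and 0.765 FPKM under cold. Even after the fall, salt-stressed root held more of it than any shoot library. Its root change under desiccation, 0.50, lay at the edge of what the criteria allowed.

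Ca_06906 was also close to restricted to root. It stood at 63.6 FPKM in control root, 84.9 FPKM under desiccation, 78.7 FPKM under cold and 15.0 FPKM under salinity. In shoot it was at 0.185 FPKM in the control, listed at 0 under desiccation, at 0.231 FPKM under cold and at 1.34 FPKM under salinity. Salt-stressed shoot was the single shoot library that brought it past the minimum of 1 FPKM. Its shoot change under salinity was 0.98, opposite in sign to the root change and near the limit of 1.

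Ca_08330 had a like shape at a lower level. In root it stood at 14.1 FPKM in the control, 19.0 FPKM under desiccation, 13.6 FPKM under cold and 2.49 FPKM under salinity. In shoot it stood at 0.996 FPKM in the control, 0.441 FPKM under desiccation, 1.15 FPKM under cold and 2.38 FPKM under salinity, so salinity was again its highest shoot library. A gene model under 1 FPKM cannot be lower by 1 on the log2(FPKM + 1) scale. For Ca_08330 and Ca_06906, which were below that level in control shoot, the criteria could therefore not have detected a fall in shoot.

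Ca_13139, Ca_19867, Ca_18253, Ca_09127 and Ca_05756 were expressed in shoot at lower levels than in root outside salinity. Ca_13139 stood at 46.7 FPKM in control root, 58.9 FPKM under desiccation, 46.4 FPKM under cold and 8.73 FPKM under salinity, and its 4 shoot libraries lay between 4.16 and 5.99 FPKM. Ca_18253 stood at 83.7, 63.9, 66.0 and 14.8 FPKM in control, desiccated, cold and salt-stressed root, and its shoot libraries lay between 14.6 and 18.5 FPKM. In these 2 gene models every shoot value was within 0.5 of the shoot control on the log2 scale, and the salt-stressed root value lay within the shoot range for Ca_18253 and just above it for Ca_13139.

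Ca_19867 and Ca_05756 were lower in salt-stressed shoot too, within what the criteria allowed. Ca_19867 stood at 17.0 FPKM in control root, 24.3 FPKM under desiccation, 15.7 FPKM under cold and 2.45 FPKM under salinity, a 6.94-fold difference from the control. In shoot it was at 3.39 FPKM in the control, 2.02 FPKM under desiccation, 1.75 FPKM under salinity and 3.99 FPKM under cold. Its shoot changes were -0.54 under desiccation and -0.67 under salinity. Ca_05756 stood at 14.4, 14.6, 16.8 and 2.78 FPKM in control, desiccated, cold and salt-stressed root, and at 7.40, 6.02, 7.68 and 3.35 FPKM in the same order in shoot. Its shoot change under salinity, -0.95, was the lowest of the 14.

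Ca_09127 was among the most abundant in both tissues. It stood at 131 FPKM in control root, 111 FPKM under desiccation, 125 FPKM under cold and 28.1 FPKM under salinity, 4.66-fold below the control. In shoot it stood at 51.1 FPKM in the control, 33.0 FPKM under desiccation, 40.8 FPKM under salinity and 52.5 FPKM under cold. Desiccation gave its lowest shoot value, with a change of -0.62.

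In the other 6 gene models the root and shoot levels outside salinity lay closest together. Ca_17789 had the highest shoot level. It stood at 132.6 FPKM in control shoot, 73.6 FPKM under desiccation, 123 FPKM under cold and 93.0 FPKM under salinity. In root it stood at 99.4 FPKM in the control, 131 FPKM under desiccation, 102 FPKM under cold and 22.3 FPKM under salinity. It was thus higher in desiccated root and lower in desiccated shoot than in the controls, with changes of 0.39 and -0.84, while salinity gave -2.11 in root and -0.51 in shoot.

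Ca_12966 had the second largest fall. In root it stood at 72.9 FPKM in the control, 71.3 FPKM under desiccation, 55.5 FPKM under cold and 12.1 FPKM under salinity, a change of -2.49. In shoot it stood at 29.6 FPKM in the control, 46.9 FPKM under desiccation, 31.98 FPKM under cold and 25.5 FPKM under salinity. Salt-stressed root thus held less of it than any shoot library.

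The next 3 had root levels outside salinity close to their shoot levels. Ca_19340 stood at 27.3, 31.3, 24.6 and 4.68 FPKM in control, desiccated, cold and salt-stressed root, and its shoot libraries lay between 18.0 and 28.3 FPKM. Ca_11430 stood at 29.8, 31.2, 22.3 and 5.84 FPKM in the same order, and its shoot libraries lay between 18.2 and 21.9 FPKM. Ca_03402 stood at 33.0, 27.8, 27.0 and 7.43 FPKM, and its shoot libraries lay between 21.0 and 33.3 FPKM. For each of these 3 the salt-stressed root was below all 7 other libraries, and the 3 remaining root libraries overlapped the shoot range or lay close above it.

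Ca_19189 was the weakest member in root. It stood at 6.39 FPKM in the control, 7.29 FPKM under desiccation, 5.41 FPKM under cold and 0.686 FPKM under salinity. Its ratio of control to salinity, 9.32-fold, was the largest of the 14, although its change on the log2(FPKM + 1) scale was -2.13, because the added 1 weighs more at low levels. In shoot it was at 3.14 FPKM in the control, 6.10 FPKM under desiccation, 2.82 FPKM under salinity and 3.22 FPKM under cold. Values near 1 FPKM rest on few fragments, and the number behind a single value cannot be read from the FPKM.

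Within the limits set by the criteria, the members' other changes had both signs. In root they ran from -0.38 to 0.50 under desiccation, with a median of 0.18 and 10 of 14 above the control, against a median of 0.04 for the 5991 steady gene models. Under cold they ran from -0.40 to 0.30, with a median of -0.09 and 10 of 14 below the control, against -0.01. In shoot the medians were 0.02 under desiccation, -0.10 under salinity and 0.05 under cold, against -0.01, 0.01 and -0.02 for the 5991. The number of members above the shoot control was 7, 6 and 10. The highest root library was desiccation for 9 members, the control for 4 and cold for 1. Within a tissue the changes share their control library, so they are not separate observations. The matching shares among the 5991 gene models were not counted, so nothing is read from these counts of members. Shoot steadiness was least informative where shoot levels were low: 11 members had at least 3 FPKM in control shoot, where a 4-fold fall could have been seen, and 7 had at least 10 FPKM in every shoot library.

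Root and shoot levels were compared as a further description of the members. No contrast between the tissues was among the criteria, but the same libraries were. The comparison was made with limma over all 21876 loci whose mean reached 1 FPKM, using the control, desiccation and cold libraries of each tissue (n = 3) with treatment as a covariate and leaving out salinity. Of the 14 members, 8 were higher in root at a limma adjusted p under 0.05, and 0 were higher in shoot. At an unadjusted limma p under 0.05 the count was 9, all higher in root. The share of other loci at that threshold was not counted, so nothing is read from the 9. At a limma adjusted p under 0.05, 14.7% of all loci tested were called higher in root and 16.3% higher in shoot. Among the 5991 steady gene models with at least 3 FPKM in the root control, these shares were 10.0% and 9.83%. The median difference, root minus shoot, was 1.23 for the members and 0.07 for those 5991 gene models. These counts are not independent of the choice. A fall of 2 under salinity asks for a high level in control root, and the desiccation and cold libraries had to stay near it. Both favour higher values in root. The shoot minimum of 1 FPKM works the other way, since it removed 7 gene models whose shoot values went no higher than 0.731 FPKM. The limits on the root libraries can also narrow the error. The members' share is therefore given beside the others without a reading. For Ca_06906, which reached 1 FPKM in shoot through salt-stressed shoot alone, the call follows from the choice. Libraries under different treatments stand in for replicates here. With treatment as a covariate, the error reflects how far the root minus shoot difference varies from treatment to treatment. In limma this error is also pulled toward the trend over all loci tested.

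**Figure D3:**
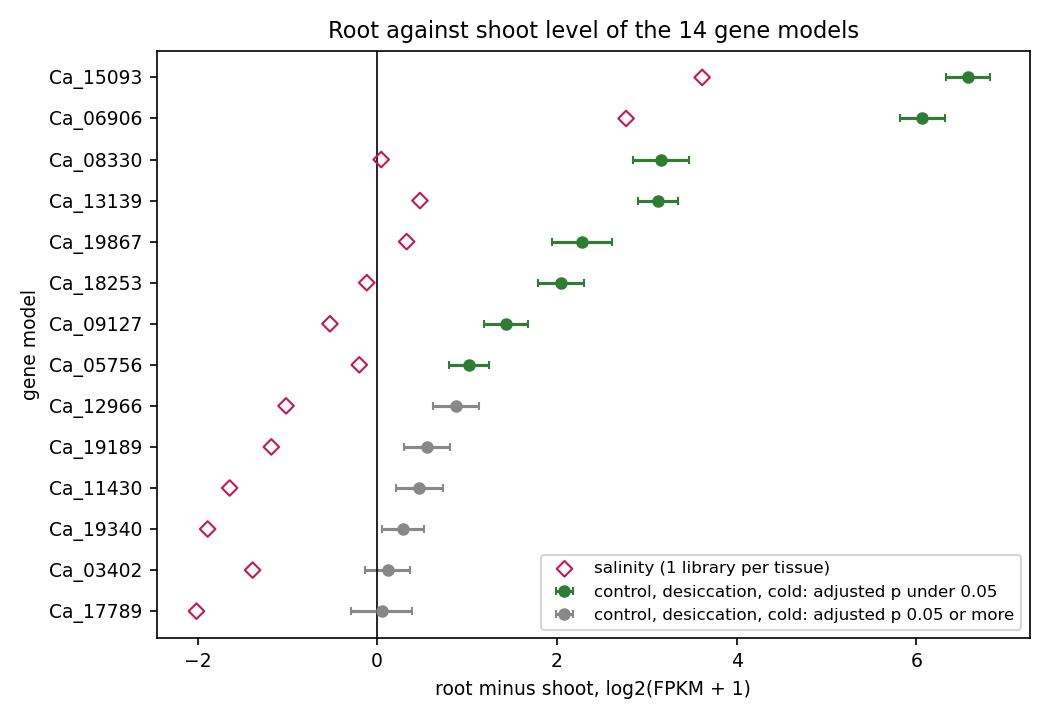
Difference between root and shoot in log2(FPKM + 1) for each of the 14 gene models; circles are the limma estimate over control, desiccation and cold with its standard error, green where the adjusted p was under 0.05, and open diamonds are the difference between the single salt-stressed libraries. All circles lie above 0, from 0.05 to 6.58, and 9 of the 14 diamonds lie below 0.

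The tissue differences covered a wide range. Ca_15093 averaged 224 ± 40.2 FPKM in root against 1.40 ± 0.723 FPKM in shoot (SD over n = 3 treatments), which is 6.58 on the log2 scale (SE 0.24, limma adjusted p = 0.00024). Ca_06906 averaged 75.7 ± 11.0 FPKM in root against 0.139 ± 0.122 FPKM in shoot, a difference of 6.07 (SE 0.25, limma adjusted p = 0.000272). Next came Ca_08330 at 3.16 (SE 0.31, limma adjusted p = 0.00173) and Ca_13139 at 3.13 (SE 0.22, limma adjusted p = 0.000726). Where shoot values were near 0 the size depended on the pseudocount. With 0.1 the difference was 8.48 for Ca_06906, above the 7.32 of Ca_15093, and with 5 it was 3.96 for Ca_06906 and 1.80 for Ca_08330. Ca_19867 followed at 2.28, Ca_18253 at 2.04, Ca_09127 at 1.43 and Ca_05756 at 1.02, with limma adjusted p-values of 0.00659, 0.00385, 0.0112 and 0.0245. All 8 were higher in root under 3 of 3 treatments. The limits on the changes within each tissue favoured such agreement, so nothing is read from it. Without the cold libraries of both tissues the adjusted p of Ca_09127 was 0.0679. Ca_05756 lost its call without the control, desiccation or cold libraries, with limma adjusted p-values of 0.0593, 0.0685 and 0.146.

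The remaining 6 did not pass the test. Ca_12966 had a difference of 0.88 (SE 0.26, limma adjusted p = 0.0559). It was higher in root under 3 of 3 treatments, an agreement that the criteria again favoured. Ca_19189, Ca_11430 and Ca_19340 had differences of 0.55, 0.47 and 0.29, with standard errors of 0.24 to 0.26. Ca_03402 and Ca_17789 had the smallest differences, 0.12 (SE 0.25) and 0.05 (SE 0.34). Ca_17789 was higher in root under 1 of 3 treatments, desiccation. For these 6 a tissue difference was not detected, which does not show that the levels were equal.

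The order of the tissues in the salinity libraries differed from that in the control libraries for 8 of the 14 members. In the control libraries 13 of the 14 were higher in root than in shoot, against 52.7% of the 5991 steady gene models. In the salinity libraries 9 of the 14 were lower in root than in shoot, against 51.4%, and 8 of these 9 had been higher in root in the control. Both counts follow in part from the choice, which favoured high values in control root and asked for low ones in salt-stressed root, so nothing is read from them. The 5 that stayed higher in root were Ca_15093, Ca_06906, Ca_13139, Ca_19867 and Ca_08330. The last of these had nearly equal values, 2.49 FPKM in root and 2.38 FPKM in shoot. Among the 8 that turned, Ca_18253 was also close, at 14.8 FPKM in salt-stressed root and 16.1 FPKM in salt-stressed shoot. Ca_05756 stood at 2.78 and 3.35 FPKM.

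The same criteria were applied to each other stress, tissue and direction, with the roles of root and shoot exchanged for shoot. In root, 79 gene models were higher under salinity alone, against the 14 that were lower. These are 1.06% and 0.188% of the 7431 gene models steady elsewhere, and 10.8% and 3.74% of all gene models past the same change in that direction. For desiccation alone in root there were 0 lower and 1 higher, and for cold alone 0 lower and 1 higher. In these 2 cases the other stress had to be steady, which 4648 and 4813 gene models met, fewer than for salinity. In shoot, desiccation alone gave 9 lower and 8 higher, salinity alone 0 lower and 1 higher, and cold alone 0 of either. These are counts of single libraries without a test.

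**Figure D4:**
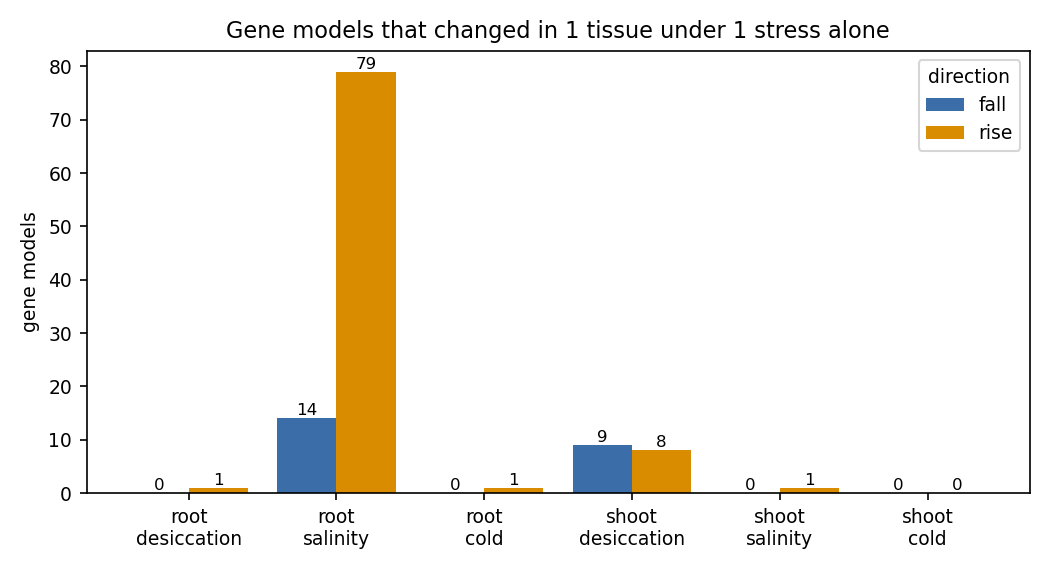
Number of gene models (vertical axis) that changed by at least 2 on the log2(FPKM + 1) scale in the tissue and stress named below each pair of bars and stayed within the limits elsewhere; blue bars are falls and orange bars rises. Root under salinity holds 14 falls and 79 rises, and shoot under desiccation 9 and 8.

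The gene models higher in root under salinity alone started lower in root. Their median level was 5.75 FPKM in control root, 35.0 FPKM in salt-stressed root and 5.45 FPKM in control shoot. Of the 79, 36 were higher in control root than in control shoot, where 13 of the 14 lower ones were, a count that the choice favoured. In the limma fit 70 of them could be tested, of which 15 were higher in root and 16 higher in shoot, with a median difference of -0.02. The members that were lower had to start at 3 FPKM or more in control root and the higher ones did not, so the 2 sets differ in starting level by construction, and the difference between them was not tested.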

How the data were processed

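The deposited values are FPKM, 1 file per library, on the same 34193 loci. Per the labels and design text, the authors used NGS QC Toolkit to filter reads, TopHat to map them to an annotated chickpea genome and Cufflinks to compute FPKM. Not given in the sources used here were the build, the annotation and the tool versions. Scaling by length and library total hides depth, so the fragment number per value is unknown. Relative depth is an estimate, the commonest ratio between the root control and a library among loci under 0.3 FPKM in both.

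Groups came from sample titles. Members were found on log2(FPKM + 1), a scale that understates changes at low levels. Root and shoot were compared with limma 3.58.1 (R 4.3.3, trended empirical Bayes, 2 residual degrees of freedom, Benjamini-Hochberg threshold 0.05). The fit was also run on simulated data, without the choice of members, so that run says nothing about the members' calls. Other steps used Python 3.11.15, pandas 2.3.3 and matplotlib 3.10.9. P-values of the main fit set the root minus shoot difference against its variation between the treatments in these libraries. Empirical Bayes pulled that variation toward the trend over all loci tested, which gave the members 5.1 total degrees of freedom. No replicate within a group enters these p-values. The members, comparisons and alternatives were chosen with earlier results of these data known. The rule for named genes picked extremes and threshold neighbours; with 14 members, all are named.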

Additional observations from a re-analysis of the deposited data

Results flagged for a closer look

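Root and shoot went in opposite directions under salinity for 6 of the 14 gene models, lower in root and higher in shoot than the control. The other 8 were lower in both. The fall in root was set by the criteria for all 14, so this is a count of shoot signs alone. For the steady gene models with at least 3 FPKM in the root control, the median shoot change under salinity was 0.01. Their share above 0 was not counted, so nothing is read from the count of 6. The difference between root and shoot in these 6 was not tested, since it rests on 1 library for each tissue and treatment. The shoot changes in log2(FPKM + 1) were 0.98 for Ca_06906, 0.76 for Ca_08330, 0.20 for Ca_13139, 0.14 for Ca_19340, 0.13 for Ca_18253 and 0.11 for Ca_11430. The criteria kept all of them under 1, and Ca_06906 and Ca_08330 were below 1 FPKM in control shoot.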

How the results depend on the processing

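Which gene models meet the criteria depends on the scale. A pseudocount of 0.1 gave 21 gene models, 10 of them among the 14, and a pseudocount of 5 gave 7, 4 of them among the 14 (Ca_15093, Ca_12966, Ca_18253 and Ca_09127). Median-ratio scaling gave the same 14, and quantile normalization gave 18, with 13 of the 14. A threshold of -1 in root salinity gave 444 and one of -3 gave 0. Limits of 0.5 on all other changes left 4 (Ca_18253, Ca_13139, Ca_11430 and Ca_03402), and limits of 1 gave 41. A shoot minimum of 5 FPKM left 10, and none gave 21. The median root salinity change was -2.43 with a pseudocount of 0.1 and -1.76 with 5. The root salinity change was negative for all 14 under the 4 scales tried. That was largely set by the choice, since another pseudocount cannot change the sign, so nothing is read from it.

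With a pseudocount of 0.1, falls in root under desiccation alone numbered 1, falls in shoot under salinity alone 1 and rises in shoot under salinity alone 4. With a pseudocount of 5, rises in root under desiccation alone, in root under cold alone and in shoot under salinity alone each numbered 0, and in shoot under desiccation alone 2 were lower and 3 higher. Quantile normalization gave 1 fall in root under cold alone.

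The number of members called higher in root by limma lay between 6 and 9 over 10 alternatives, and 0 were called higher in shoot. With 1 treatment left out it lay between 6 and 7, and the median difference between 1.16 and 1.29. The shares of all loci called in these alternatives are not given here, so nothing is read from the counts of members called. With all 8 libraries the median difference was 0.83, and 4 uncalled differences turned: Ca_03402 (-0.26), Ca_11430 (-0.057), Ca_17789 (-0.47) and Ca_19340 (-0.25). Salt-stressed root, low by choice, enters that fit. With 1 treatment left out, the difference of Ca_03402 lay between -0.044 (without control) and 0.30, and that of Ca_17789 between -0.34 (without desiccation) and 0.28. Over these alternatives the limma adjusted p ran from 0.00429 to 0.115 for Ca_09127, from 0.00594 to 0.146 for Ca_05756, from 0.000979 to 0.0618 for Ca_19867 and from 0.0327 to 0.471 for Ca_12966. Treatment, a covariate in that fit, pairs the root and shoot libraries, and without it 9 members were called. No paired analysis by replicate was possible because each tissue and treatment has 1 library. The cause of these shifts was not tested. Depth limits values near 1 FPKM.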
